A study of Homo sapiens with 6 samples.

Results

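Caco-2 cells given one short hairpin RNA against FAM46A, shRNA#2, were compared with Caco-2 cells given another, shRNA#4, across every gene that a probe set names alone. The comparison used 4 of the 6 arrays of the series, 2 per hairpin, and 14884 genes, of which 11916 are protein-coding. Each group consisted of Caco-2 cells, an established human colon carcinoma line, sampled 17 days after infection with a lentivirus, which carried FAM46A-shRNA#2 in 2 samples, FAM46A-shRNA#4 in 2 others and a scramble shRNA in the control pair. Both hairpin groups carry a hairpin against one transcript, so they have the depletion target in common and differ in hairpin sequence. The 2 scramble arrays served only to show on which side of the control each hairpin lies. The level of FAM46A was not analysed here, so how far each hairpin lowered its target is unknown, and neither hairpin's sequence was used here. What separates the 2 replicates of a group beyond a biological replicate label is not given, so p-values measure the spread between these samples, which may be technical.

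FAM46A, now named TENT5A, belongs to a family of noncanonical poly(A) polymerases, which extend the tails of mRNAs. A short hairpin RNA is cut by Dicer into a small duplex, and one strand guides an Argonaute protein to matching transcripts. Bases near the 5′ end of that strand, the seed, can also pair with other mRNAs. Caco-2 cells turn on an enterocyte programme after they reach confluence, with brush border enzymes, apolipoproteins and tight junctions, and they also make several liver-type plasma proteins.

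All values are log2 intensities set relative to a probe set's median over the 6 arrays, so a value gives a deviation and not a level, and a difference of 1 is 2-fold. Whether a gene is expressed at all cannot be read from such values, and this also limits the check of cell type. The epithelial markers measured, EPCAM, KRT8 and KRT18, differed by -0.38 to -0.065 between the hairpins and none passed the test. Of the markers of other cell types measured, DCN and LUM of fibroblasts, CD14 of immune cells and PECAM1 and VWF of endothelium did not pass either. In the longer lists given further on, the endothelial marker ESAM (-0.78) and the mesenchymal genes TAGLN (-1.34) and VIM (-0.28) were higher with shRNA#4, and their part in the other results was not tested. Across genes, the difference between the 2 arrays of a group had an SD of 0.120 for shRNA#2, 0.128 for shRNA#4 and 0.134 for scramble, and the median SE of a gene's difference between hairpins was 0.066.

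The hairpins differed at 2272 of the 14884 genes (15.3%) in limma at a Benjamini-Hochberg adjusted p under 0.05, which is what called means here. Of these, 988 (6.64%) were higher with shRNA#2 and 1284 (8.63%) were higher with shRNA#4. This lean towards shRNA#4 depended on the scaling. Under quantile normalization of the arrays, 1305 were higher with shRNA#2 and 1328 higher with shRNA#4. Most differences were small: the median size among called genes was 0.41, with quartiles of 0.32 and 0.54, against 0.085 over all genes. A size of 2-fold or more was reached by 19 called genes higher with shRNA#2 and by 40 higher with shRNA#4. The share called was 17.7% of protein-coding genes, 5.72% of 1398 long noncoding RNAs, 8.95% of 447 transcribed pseudogenes and 3.26% of 1072 microRNA genes. For 12547 genes (84.3%) the 95% confidence interval of the difference lay wholly within 0.5 on either side of 0, and 745 of these were called, so a call alone does not mark a large difference. The number of calls rested on the pair of arrays behind each hairpin. Without replicate 1 of shRNA#2 it was 761, without replicate 2 of shRNA#2 1022, without replicate 1 of shRNA#4 1300 and without replicate 2 of shRNA#4 1057. Over these 4 fits, 610 genes (26.8% of those called) kept their call, 251 of them higher with shRNA#2 and 359 higher with shRNA#4. Such a fit leaves 1 array in 1 group, which is assumed to vary like the others.

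The genes furthest above shRNA#2 in the cells with shRNA#4 were OLR1, an endothelial-type scavenger receptor for oxidised LDL, BAAT, which conjugates bile acids with amino acids, and PTGS2, the inducible cyclooxygenase. OLR1 stood at -1.23 and -0.99 in the shRNA#2 arrays, at 1.41 and 1.24 in the shRNA#4 arrays and at -0.26 and 0.26 in the scramble arrays, a difference of -2.44 (SE 0.18), or 5.42-fold. For BAAT the shRNA#4 arrays read 1.37 and 1.80, the shRNA#2 arrays -0.36 and -0.18 and the scramble arrays 0.18 and -0.20, a difference of -1.85 (SE 0.18). PTGS2 had values of -0.12 and 0.12 with shRNA#2, 1.70 and 1.92 with shRNA#4 and -0.36 and -0.29 with scramble, a difference of -1.81 (SE 0.11). In OLR1 the scramble arrays lay between both hairpins, whereas in BAAT the shRNA#2 and scramble arrays overlapped and in PTGS2 both hairpins lay above scramble. VGLL1, a coactivator that binds TEAD factors, differed by -1.71 (SE 0.14), EDN1, the vasoactive peptide endothelin-1, by -1.51 (SE 0.13), and IGFL2, a secreted insulin growth factor-like protein, by -1.51 (SE 0.12). In all 3 the shRNA#4 arrays stood well above the other 4, and with shRNA#2 they lay 0.13, 0.35 and 0.024 from scramble. PEA15, a death effector domain protein that binds ERK, showed the same pattern: its shRNA#4 arrays read 1.51 and 1.43 and its shRNA#2 arrays -0.18 and -0.036, a difference of -1.58 (SE 0.066). NCR3LG1, a ligand for the natural killer cell receptor NKp30, read 1.26 and 1.20 with shRNA#4 and -0.17 and -0.30 with shRNA#2, a difference of -1.47 (SE 0.059). In a second pattern shRNA#2 alone lay below scramble. SYPL1 stood at -1.18 and -1.38 in the shRNA#2 arrays, at 0.12 and 0.031 in the shRNA#4 arrays and at 0.044 and -0.031 in the scramble arrays, a difference of -1.35 (SE 0.079) for this synaptophysin-like membrane protein. CLTRN, collectrin, which helps place amino acid transporters at the apical membrane, differed by -1.46 (SE 0.17), and lay -1.06 with shRNA#2 and 0.40 with shRNA#4 from scramble. The remaining genes of the 15 largest were DKK1, the secreted Wnt inhibitor (-1.62), CSGALNACT2, which starts chondroitin sulfate chains (-1.54), the metallothionein MT1F (-1.48), the haem oxygenase HMOX1 (-1.40) and the actin-binding TAGLN (-1.34).

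In the other direction, the 15 largest differences were led by TM4SF4, a tetraspanin-like membrane protein of liver and intestine, and HSD17B2, which inactivates oestradiol and testosterone. TM4SF4 stood at 0.36 and 0.081 in the shRNA#2 arrays, at -1.77 and -2.17 in the shRNA#4 arrays and at 0.31 and -0.081 in the scramble arrays, a difference of 2.19 (SE 0.18), or 4.56-fold. For HSD17B2 the shRNA#4 arrays read -1.75 and -2.17, the shRNA#2 arrays 0.10 and -0.10 and the scramble arrays 0.66 and 0.14, a difference of 1.96 (SE 0.21). The shRNA#2 arrays overlapped scramble in TM4SF4 and lay below it in HSD17B2, and the shRNA#4 arrays were far below both in each gene. The fall with shRNA#4 alone, as in TM4SF4, held for APOA2, an apolipoprotein of HDL (1.23 (SE 0.069)), and CTSO, a cysteine protease (1.30 (SE 0.16)). Others stood above scramble with shRNA#2 and below it with shRNA#4. GALNT3 had values of 0.60 and 0.50 with shRNA#2, -1.17 and -1.13 with shRNA#4 and -0.029 and 0.029 with scramble, a difference of 1.70 (SE 0.057) for this enzyme, which starts mucin-type O-glycans. TNIK stood at 0.84 and 0.75 in the shRNA#2 arrays, at -0.67 and -0.75 in the shRNA#4 arrays and at 0.11 and -0.11 in the scramble arrays, a difference of 1.51 (SE 0.085) for this kinase, which works with TCF4 in Wnt signalling. MMP1, the interstitial collagenase (1.54 (SE 0.14)), ADAM9, a membrane metalloprotease (1.54 (SE 0.10)), CP, the copper-carrying ferroxidase ceruloplasmin (1.21 (SE 0.072)), and NDNF, a secreted neurotrophic factor (1.09 (SE 0.11)), followed the same order. A last set was high with shRNA#2 and at or nearer scramble with shRNA#4. For GCFC2 the shRNA#4 arrays read 0.0077 and -0.038, the shRNA#2 arrays 1.10 and 1.04 and the scramble arrays -0.0077 and -0.027, a difference of 1.09 (SE 0.049). BMAL2, a partner of CLOCK, lay 1.56 with shRNA#2 and 0.36 with shRNA#4 from scramble. RASSF9 lay 2.01 with shRNA#2 and 0.90 with shRNA#4 from it and POU2AF3 0.87 with shRNA#2 and -0.21 with shRNA#4. TFF1, a trefoil peptide of mucus, lay below scramble with both hairpins, lower with shRNA#4, and differed between them by 1.15 (SE 0.18). The adjusted p of the 30 genes ranged from 0.00111 to 0.0158 in limma. All but 3 kept their call without each of the 4 hairpin arrays. The call of TFF1 was lost without either shRNA#2 array or replicate 2 of shRNA#4 (adjusted p up to 0.0672 in limma), that of MT1F without the same arrays (up to 0.0851), and that of DKK1 without replicate 1 of shRNA#2 or either shRNA#4 array (up to 0.0760). Against a minimum of 1.5-fold, limma's treat called 14 of the 30.

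**Figure D1:**
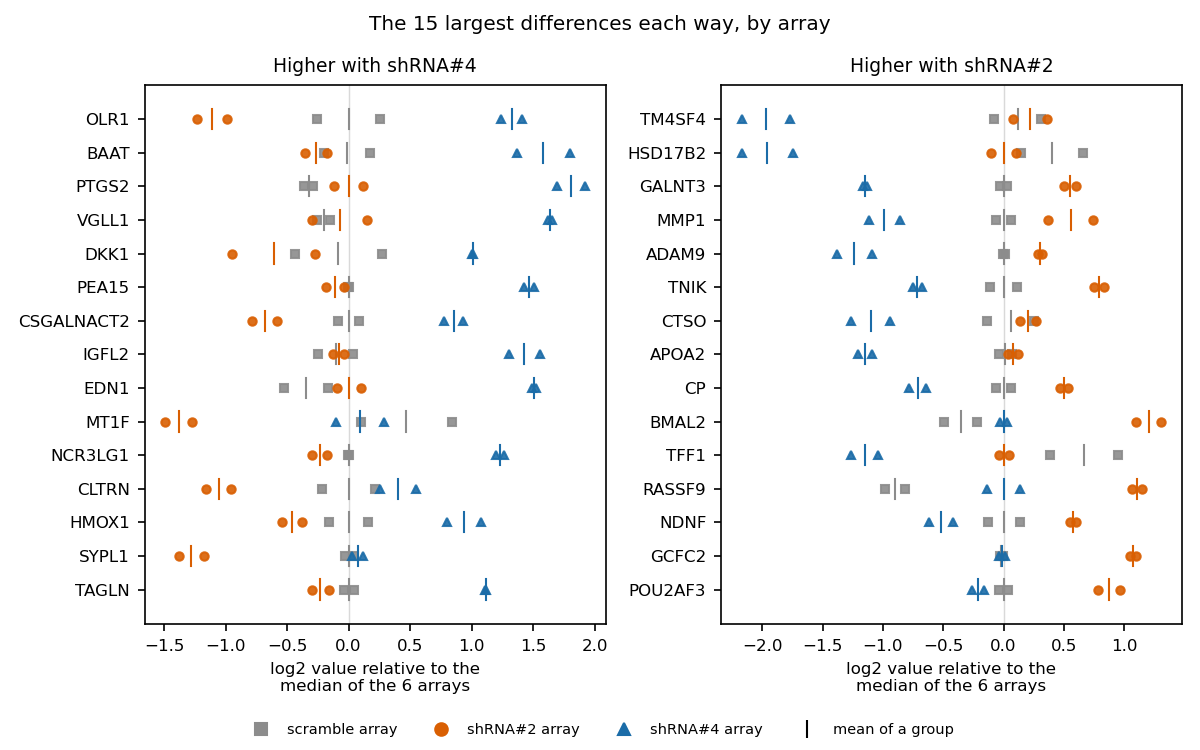
The 15 protein-coding genes with the largest difference in each direction, 1 row per gene, with the log2 value of each of the 6 arrays relative to their median on the x axis. Squares, circles and triangles stand for scramble, shRNA#2 and shRNA#4 arrays and short bars for the group means. The 2 arrays of one hairpin never reach those of the other in these rows.

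Set beside scramble, the called genes fell into several arrangements. Since both hairpins are compared with the same 2 scramble arrays, their changes from scramble are given side by side only. In 893 of the 2272 called genes (39.3%) the 4 hairpin arrays were all above or all below the pair of scramble arrays, a share close to the 36.2% of all genes arranged so. Among those above scramble, shRNA#4 was the higher in 403 and shRNA#2 in 176, and among those below it shRNA#4 was the lower in 203 and shRNA#2 in 111. In 671 (29.5%) the scramble arrays lay between the hairpins, against 910 (6.11%) of all genes. The rest had 1 hairpin clear of scramble, shRNA#4 in 393 (17.3%) and shRNA#2 in 315 (13.9%), beside 16.3% of all genes for each hairpin. The arrays of one hairpin did not overlap those of the other in any called gene, and in 54.5% of all genes. Scramble between the hairpins requires that separation, so part of its larger share among called genes follows from how they were called. Against scramble itself, 3220 genes (21.6%) were called with shRNA#2 and 3884 (26.1%) with shRNA#4. In 100 genes both changes were called and ran in opposite directions, 31 with shRNA#2 the higher and 69 with shRNA#4 the higher. PLBD1 stood at 0.74 and 0.45 in the shRNA#2 arrays, at -0.38 and -0.43 in the shRNA#4 arrays and at -0.046 and 0.046 in the scramble arrays for this phospholipase B-like protein, a difference of 1.01 (SE 0.10). FURIN, the proprotein convertase of the secretory pathway, lay 0.35 with shRNA#2 and -0.39 with shRNA#4 from scramble, and PNRC1, a nuclear receptor coactivator, 0.30 with shRNA#2 and -0.57 with shRNA#4. Each lay above scramble with shRNA#2 and below it with shRNA#4 in every array. The reverse held for GGCT, which makes 5-oxoproline in glutathione turnover, and for TOMM34, a mitochondrial import cofactor. GGCT had values of -0.44 and -0.58 with shRNA#2, 0.52 and 0.61 with shRNA#4 and -0.049 and 0.049 with scramble, a difference of -1.08 (SE 0.071), and TOMM34 differed by -0.94 (SE 0.10). Of the 10 genes named for this reverse order, 4 lie on the X chromosome. They are ACSL4, which activates arachidonate (-1.01 (SE 0.094)), SMC1A, a cohesin subunit (-1.04 (SE 0.085)), HCCS, which attaches haem to cytochrome c (-1.03 (SE 0.11)), and VMA21, an assembly factor of the vacuolar ATPase (-0.96 (SE 0.056)). Over the whole X chromosome 13.7% of 569 genes were called, 25 higher with shRNA#2 and 53 higher with shRNA#4, with a median difference of -0.0039. The part of the called genes that was higher with shRNA#4 was thus 67.9%, beside 67.1% on chromosome 12. It ran from 43.4% on chromosome 8 to 69.6% on chromosome 19, so this lean was not particular to X. Shares called ran from 8.53% on chromosome 22 to 19.8% on chromosome 12, and medians from -0.029 to 0.0049.

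**Figure D2:**
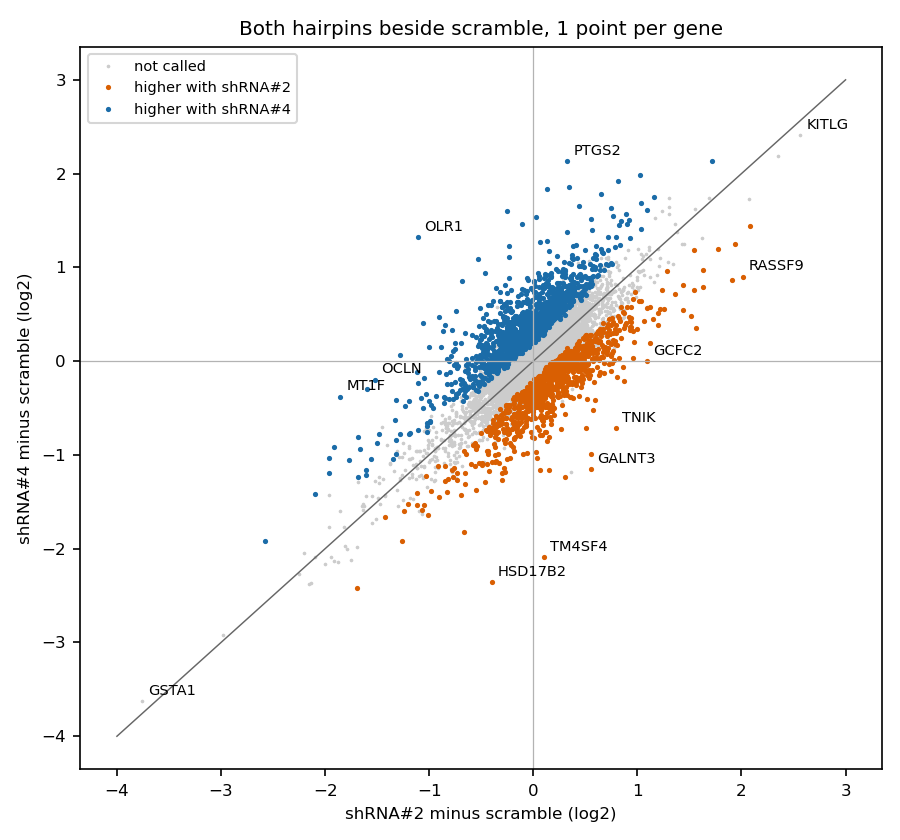
Each point is 1 of the 14884 genes, with the change from scramble on the log2 scale for shRNA#2 on the x axis and for shRNA#4 on the y axis. Both axes share the scramble arrays. Orange and blue points are the 988 and 1284 genes called higher with shRNA#2 and with shRNA#4, and the diagonal marks equal change. KITLG and GSTA1 lie near the diagonal far from the centre, and OLR1, GALNT3 and TNIK lie in the quadrants where the hairpins moved a gene in opposite directions.

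Gene lists were described next. Over 42 lists, 870 distinct members were measured and 201 were called (23.1%), beside 15.3% of all genes and 17.7% of protein-coding genes. The lists had been chosen with earlier results of these data known, so this larger share cannot be read as a result about them.

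Signalling through the MAP kinases leaves a mark in 2 kinds of genes. Immediate early genes encode AP-1 subunits and other short-lived factors. Feedback genes such as SPRY2 and DUSP6 follow ERK activity and restrain it, and the ETV transcription factors, which follow it too, are listed with them. Of 25 measured members of the list for both kinds, 12 were called, 7 higher with shRNA#4 and 5 higher with shRNA#2, with a list median of -0.035. The 7 were transcription factors and 1 phosphatase. ATF3 stood at 0.0052 and -0.0052 in the shRNA#2 arrays, at 0.97 and 1.09 in the shRNA#4 arrays and at -0.20 and -0.10 in the scramble arrays, a difference of -1.03 (SE 0.064) (adjusted p = 0.00154 in limma). For JUN the shRNA#4 arrays read 0.63 and 0.81, the shRNA#2 arrays -0.17 and -0.079 and the scramble arrays 0.079 and -0.15, a difference of -0.85 (SE 0.10). KLF6 differed by -0.87 (SE 0.054), DUSP1, a phosphatase that acts on JNK and p38, by -0.85 (SE 0.11), and JUND, FOSL1 and FOSB by -0.46, -0.38 and -0.23. In ATF3 and JUN the shRNA#4 arrays stood alone above the rest, while in KLF6 scramble lay between the hairpins. The 5 higher with shRNA#2 were ERK feedback genes and ETS factors. SPRY2 had values of 0.98 and 1.09 with shRNA#2, -0.024 and 0.024 with shRNA#4 and -0.34 and -0.62 with scramble, a difference of 1.03 (SE 0.10), and both hairpins lay above scramble. DUSP6, an ERK phosphatase, differed by 0.81 (SE 0.15), DUSP4 by 0.42 (SE 0.089), ETV5 by 0.55 (SE 0.10) and ETV4 by 0.43 (SE 0.053). The calls of ATF3, KLF6, DUSP1, JUN, SPRY2 and ETV4 held without each hairpin array, and those of the other 6 did not. Of the 12 calls, 9 and 7 remained without replicate 1 and 2 of shRNA#2 and 8 and 7 without replicate 1 and 2 of shRNA#4.

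The list of NF-kB and inflammatory genes had 6 called of 20 measured, all higher with shRNA#4, and a median of -0.13. OLR1 and PTGS2 led it. ICAM1 stood at -0.52 and -0.48 in the shRNA#2 arrays, at 0.090 and 0.26 in the shRNA#4 arrays and at -0.020 and 0.020 in the scramble arrays for this leukocyte adhesion molecule. The difference was -0.68 (SE 0.069), with scramble between the hairpins. The chemokine CCL20 (-0.49 (SE 0.11)) was high in the shRNA#4 arrays, the cytokine IL32 (-0.44 (SE 0.065)) low in the shRNA#2 arrays, and NFKB1, the p105 subunit, differed by -0.23. Calls of OLR1, PTGS2 and ICAM1 held without each hairpin array, and 3, 4, 4 and 5 of the 6 remained without replicate 1 and 2 of shRNA#2 and replicate 1 and 2 of shRNA#4. NRF2, an oxidant-responsive transcription factor, drives HMOX1, TXNRD1 and OSGIN1, and metallothioneins bind zinc and copper. In the list that holds both, 6 of 18 measured were called, all higher with shRNA#4, and 1 difference was over 0. For HMOX1 the shRNA#4 arrays read 0.80 and 1.07, the shRNA#2 arrays -0.54 and -0.38 and the scramble arrays -0.16 and 0.16, a difference of -1.40 (SE 0.14), with scramble between the hairpins. MT1F had values of -1.49 and -1.28 with shRNA#2, -0.10 and 0.29 with shRNA#4 and 0.10 and 0.84 with scramble, so shRNA#2 alone lay below scramble, whose own arrays lay far apart. MT2A differed by -0.88 (SE 0.15), OSGIN1 by -0.50 (SE 0.078), TXNRD1 by -0.41 (SE 0.062) and NFE2L2, which encodes NRF2, by -0.18 (SE 0.046). Only HMOX1 held without each hairpin array, and 1 of the 6 calls remained without replicate 1 of shRNA#2 or replicate 2 of shRNA#4, 4 without replicate 2 of shRNA#2 and 5 without replicate 1 of shRNA#4.

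YAP works through TEAD factors, and actin tension works through SRF, to switch on genes of the cytoskeleton and matrix. Among 16 measured YAP and TEAD targets, 6 were called, all higher with shRNA#4, with a median of -0.23. Under quantile normalization of the arrays 7 were higher with shRNA#4 and 1 with shRNA#2. ANKRD1 stood at -0.19 and 0.19 in the shRNA#2 arrays, at 1.11 and 1.17 in the shRNA#4 arrays and at -0.73 and -0.57 in the scramble arrays for this ankyrin repeat protein, a difference of -1.14 (SE 0.13), and both hairpins lay above scramble. CRIM1 (-0.52 (SE 0.060)) and TEAD4 (-0.44 (SE 0.064)) were high in the shRNA#4 arrays, whereas MYOF (-0.54 (SE 0.082)) and AMOTL2 (-0.54 (SE 0.13)) were low in the shRNA#2 arrays. CCN2, also known as CTGF, differed by -0.35 (SE 0.086). Of 17 measured SRF and actin genes, 5 were higher with shRNA#4 and 3 higher with shRNA#2. For TAGLN the shRNA#4 arrays read 1.11 and 1.12, the shRNA#2 arrays -0.30 and -0.16 and the scramble arrays -0.041 and 0.041, a difference of -1.34 (SE 0.064), and COTL1 (-0.62 (SE 0.12)), SRF itself (-0.44 (SE 0.052)), TAGLN2 (-0.36) and TPM4 (-0.27) were also higher with shRNA#4. VCL, vinculin (0.62 (SE 0.11)), CALD1, caldesmon (0.48 (SE 0.055)), and CNN2, a calponin (0.42 (SE 0.086)), went the other way. THBS1, a matricellular protein, was called too, at -0.89 (SE 0.15), with both hairpins above scramble. Calls that held without each hairpin array were ANKRD1, CRIM1, TAGLN, SRF and CALD1. Without replicate 1 of shRNA#2, 2 of 6 YAP and TEAD calls and 3 of 8 SRF and actin calls remained, and without replicate 2 of shRNA#4, 4 and 3.

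**Figure D3:**
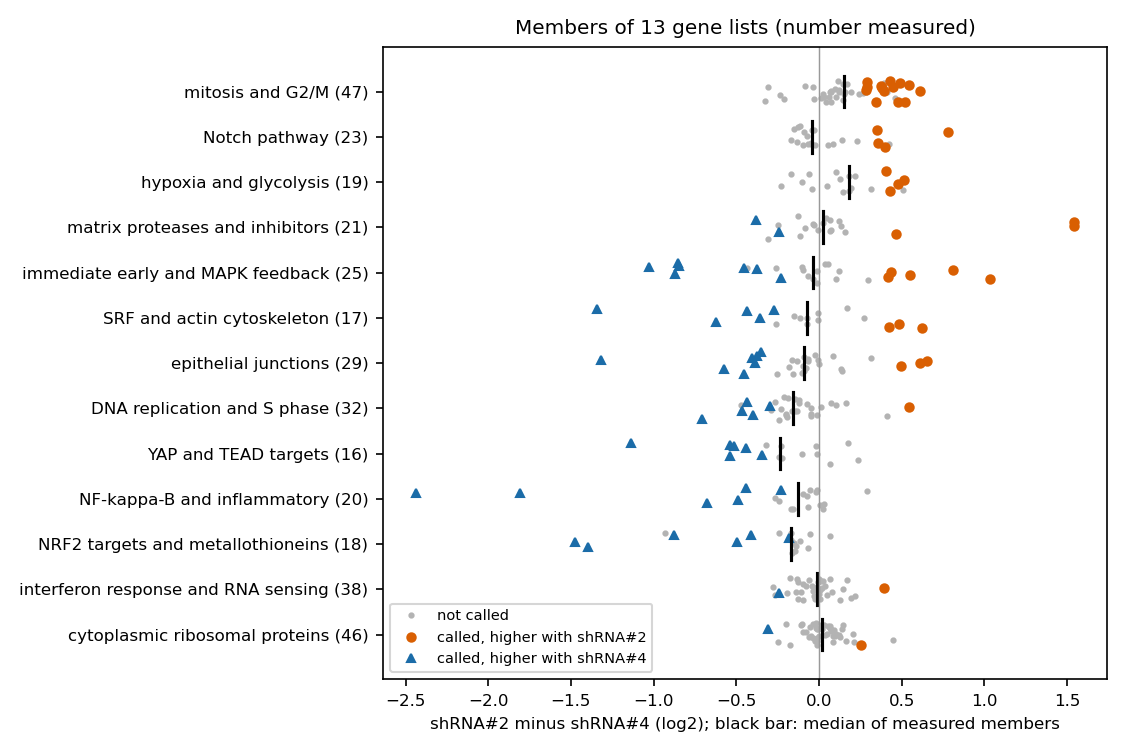
Differences between the hairpins on the log2 scale (x axis) for the measured members of 13 lists (rows, with the number measured), shown as grey dots where not called, orange circles where called higher with shRNA#2 and blue triangles where called higher with shRNA#4, with a black bar at the list median. The mitosis, Notch and hypoxia rows have called members to the right alone, and the YAP, NF-kB and NRF2 rows to the left alone. Dots are spread vertically at random for legibility.

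Stretches of promoter that hold such motifs are shown for members named above, from RefSeq on GRCh38.p14, each written 5′ to 3′ on the strand of its gene. Capitals mark AP-1 motifs (TGANTCA) and TEAD motifs (GGAATG) in ANKRD1, an AP-1 motif in MT2A, a CRE (TGACGTCA) and an E-box (CACGTG) in DUSP1, a match to GGAANTTCC in ICAM1, and a TEAD motif in VCL, which was higher with shRNA#2 where the first 4 were higher with shRNA#4.
ANKRD1 (chr10:90921198-90921317, minus strand): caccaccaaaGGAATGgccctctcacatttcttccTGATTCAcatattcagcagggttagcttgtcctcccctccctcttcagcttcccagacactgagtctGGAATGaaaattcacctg
MT2A (chr16:56608434-56608553, plus strand): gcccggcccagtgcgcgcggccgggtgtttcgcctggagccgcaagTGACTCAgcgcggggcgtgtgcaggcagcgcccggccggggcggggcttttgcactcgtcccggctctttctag
DUSP1 (chr5:172771246-172771365, minus strand): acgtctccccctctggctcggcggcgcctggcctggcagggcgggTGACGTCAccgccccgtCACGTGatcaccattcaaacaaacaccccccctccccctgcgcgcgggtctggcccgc
ICAM1 (chr19:10270890-10271009, plus strand): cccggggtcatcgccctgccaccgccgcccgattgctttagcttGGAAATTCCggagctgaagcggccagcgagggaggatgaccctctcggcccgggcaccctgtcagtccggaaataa
VCL (chr10:73997896-73998015, plus strand): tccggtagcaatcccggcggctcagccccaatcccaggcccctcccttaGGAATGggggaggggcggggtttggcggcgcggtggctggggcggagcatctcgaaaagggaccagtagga

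Each stretch is 120 bases long and lies upstream of the gene's start. Of the 14884 genes, 10749 had a promoter in the RefSeq table, running from 250 bases before to 50 bases after the start, and both strands were searched. The AP-1 motif occurred in 5.92% of these promoters, in 3.61% of those higher with shRNA#2 and in 5.39% of those higher with shRNA#4. The CRE occurred in 2.62%, 2.32% and 3.50%, the TEAD motif in 11.7%, 9.94% and 12.4%, and the E-box in 9.02%, 9.16% and 11.1%. GGAANTTCC was found in 0.912%, 1.03% and 1.89%, and the CArG box of SRF in 1.23%, 0.903% and 0.945%. A match is a run of letters and not a shown binding site, and matches of different motifs can overlap, as the AP-1 motif and E-box of ATF6B do.

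Genes of cell division differed in 2 ways. Mitotic genes, which encode kinesins, checkpoint kinases and centromere proteins, had 14 of 47 measured members called, all higher with shRNA#2, and 40 of 47 differences were over 0, with a median of 0.15. ECT2 stood at 0.51 and 0.57 in the shRNA#2 arrays, at 0.015 and -0.015 in the shRNA#4 arrays and at -0.35 and -0.10 in the scramble arrays for this guanine nucleotide exchange factor of cytokinesis, a difference of 0.54 (SE 0.087). For BUB1 the shRNA#4 arrays read -0.053 and -0.14, the shRNA#2 arrays 0.32 and 0.53 and the scramble arrays -0.17 and 0.053 for this spindle checkpoint kinase, a difference of 0.52 (SE 0.10). INCENP and AURKB, which sit together in the chromosomal passenger complex, differed by 0.61 (SE 0.11) and 0.48 (SE 0.10). In ECT2, BUB1 and AURKB the shRNA#2 arrays lay above all others, while in INCENP the shRNA#4 arrays lay below all others. PLK1 (0.29), KIF11 (0.35), KIF20A (0.29), CENPA (0.45), NDC80 (0.43), NUSAP1 (0.39) and CKAP2 (0.49) were also higher with shRNA#2, as were CDC25C, ESPL1 and BUB3 (0.38, 0.38 and 0.28). None of the 14 calls held without each hairpin array. Without replicate 1 or 2 of shRNA#2, 2 remained, and without replicate 1 or 2 of shRNA#4, 4. The list median ran from 0.13 to 0.22 over these fits. Quantile normalization gave 18 higher with shRNA#2 and 1 higher with shRNA#4, and a fit of the 4 hairpin arrays alone gave 17 and 3. Genes of DNA replication had 6 of 32 called (18.75%, beside 17.7% of protein-coding genes). Of the 6, 5 were higher with shRNA#4, and the list median was -0.16. TYMS had values of -0.41 and -0.63 with shRNA#2, 0.20 and 0.16 with shRNA#4 and -0.0080 and 0.0080 with scramble. The difference was -0.71 (SE 0.079) for thymidylate synthase, with scramble between the hairpins. The helicase subunits MCM5 (-0.46) and MCM3 (-0.30), the replication factor MCM10 (-0.43) and the ribonucleotide reductase subunit RRM1 (-0.40) were above scramble with both hairpins and more so with shRNA#4. The exception was CCNE1, cyclin E, at 0.54 (SE 0.046), with values of 0.53 and 0.56 in the shRNA#2 arrays and 0.017 and -0.017 in the shRNA#4 arrays. Calls of TYMS and CCNE1 alone held without each hairpin array, and 2 of 6 remained without either shRNA#2 array. Among 16 measured p53 targets, TIGAR, a regulator of glycolysis (-0.76 (SE 0.094)), PLK2 (-0.50) and TRIAP1 (-0.19) were higher with shRNA#4 and CCNG1 (0.42) and RRM2B (0.34) higher with shRNA#2. Of these 5 calls that of TIGAR alone held without each hairpin array, and 1 remained without replicate 1 of shRNA#2 or replicate 2 of shRNA#4.

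**Figure D4:**
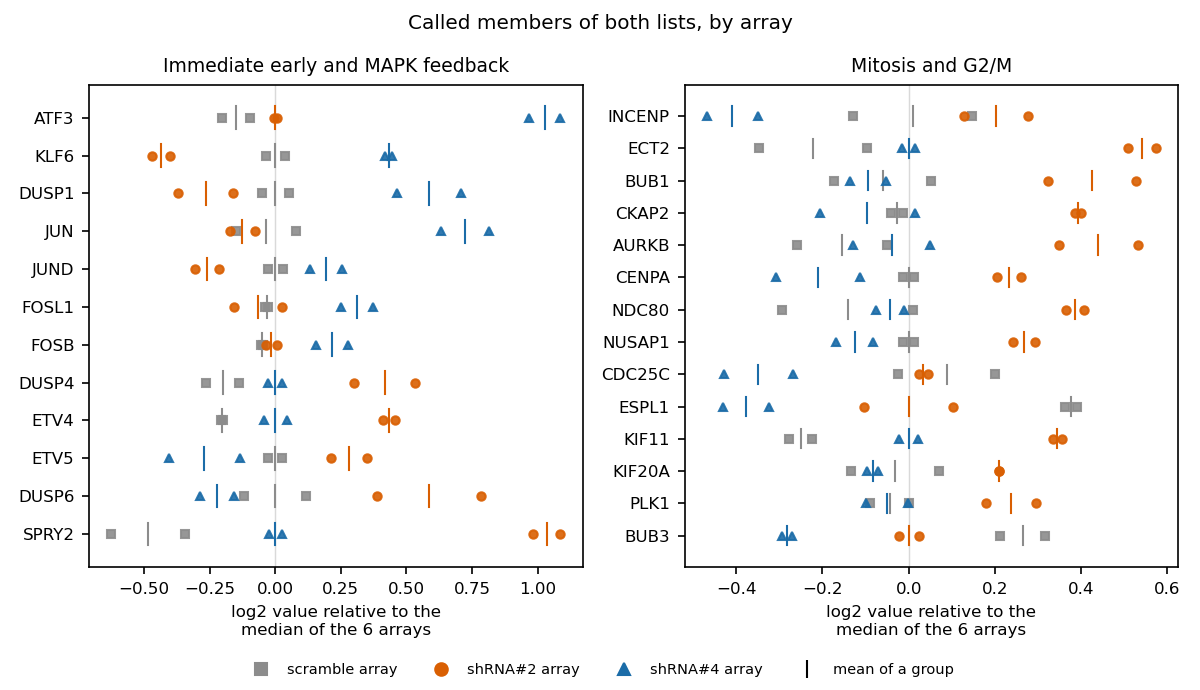
The 12 called members of the immediate early and MAPK feedback list and the 14 of the mitosis list, 1 row per gene, with the log2 value of each array relative to the median of the 6 on the x axis. Symbols are as in the plot of the largest differences, with short bars for group means. In the first panel the upper 7 rows have shRNA#4 on the right and the lower 5 shRNA#2, and in the second every row has shRNA#2 to the right of shRNA#4.

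Tight junctions seal the epithelial sheet, and desmosomes and polarity complexes hold it together. In this list 10 of 29 measured members were called, 7 higher with shRNA#4 and 3 higher with shRNA#2. OCLN stood at -1.25 and -1.39 in the shRNA#2 arrays, at 0.057 and -0.057 in the shRNA#4 arrays and at 0.22 and 0.17 in the scramble arrays for occludin, a tight junction membrane protein, a difference of -1.32 (SE 0.070). Both hairpins lay below scramble, shRNA#2 far more so. The transcribed pseudogene OCLNP1, a copy of OCLN whose probes may bind both transcripts, differed by -1.29 (SE 0.090). MARVELD2, tricellulin, which lies where 3 cells meet, had scramble between the hairpins and differed by -0.58 (SE 0.053). LSR (-0.45), JUP (-0.37) and PARD6B (-0.35) were low in the shRNA#2 arrays, and TJP1 (-0.40) and PKP2 (-0.39) high in the shRNA#4 arrays. ESRP1, an epithelial splicing regulator (0.65 (SE 0.070)), and PARD3, a polarity scaffold (0.61 (SE 0.060)), were high with shRNA#2, and DSC2, a desmosomal cadherin (0.49 (SE 0.050)), was low with shRNA#4. Calls of OCLN, MARVELD2, ESRP1, PARD3 and DSC2 held without each hairpin array, and 5 of the 10 remained without replicate 1 of shRNA#2. None of 13 measured keratins was called in limma, KRT4, KRT18 and KRT19 had an unadjusted p under 0.05, and KRT19 was called without replicate 1 of shRNA#4.

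The enterocyte and liver-type genes differed between the hairpins in both directions. Of 19 measured apolipoprotein and chylomicron genes, 4 were higher with shRNA#2 and 3 higher with shRNA#4. MTTP had values of 0.058 and -0.058 with shRNA#2, -0.59 and -0.72 with shRNA#4 and 1.18 and 1.34 with scramble for the protein that loads lipid onto apolipoprotein B, a difference of 0.65 (SE 0.081), so both hairpins lay below scramble and shRNA#4 lower. APOB and APOA1 were below scramble with both hairpins and lower with shRNA#2, at -0.51 (SE 0.067) and -0.45 (SE 0.052). APOA2, given above, was low with shRNA#4 alone, and APOM differed by 0.53, SAR1B by 0.37 and DGAT2 by -0.32. Of 22 measured plasma protein genes, prothrombin (F2, 0.74 (SE 0.085)), protein S (PROS1, 0.61 (SE 0.077)), vitronectin (VTN, 0.52) and complement factor B (CFB, 0.29) were lower with shRNA#4, and fetuin (AHSG, -0.99 (SE 0.18)), ITIH2 (-0.87) and alpha-fetoprotein (AFP, -0.77 (SE 0.17)) were lower with shRNA#2. All 7 had both hairpin means below scramble. In the brush border, SI stood at -0.81 and -1.05 in the shRNA#2 arrays, at 0.31 and -0.31 in the shRNA#4 arrays and at 1.11 and 0.94 in the scramble arrays for sucrase-isomaltase, a difference of -0.93 (SE 0.20). CA2, a carbonic anhydrase, was lower with shRNA#4 (0.81 (SE 0.10)), EZR (-0.39) and MYO1A (-0.31) lower with shRNA#2, and MYO7B differed by 0.39. Goblet cell genes included AGR2 and AGR3, disulfide isomerases of mucus-making cells, at 0.57 (SE 0.089) and 0.50 (SE 0.083), with scramble between the hairpins in both, and ZG16, a mucus lectin, at -0.66 (SE 0.12). In limma none of 10 measured Paneth cell genes (REG1B alone at an unadjusted p under 0.05, and called under quantile normalization) and 1 of 17 enteroendocrine genes (NTS, 0.21) was called. In fat metabolism ACSL1, an acyl-CoA ligase, was above scramble with both hairpins and more with shRNA#4 (-0.78 (SE 0.11)), CPT1A lower with shRNA#2 (-0.70 (SE 0.16)) and ETFDH lower with shRNA#4 (0.66 (SE 0.049)). GSTA4, which clears lipid aldehydes, was low with shRNA#4 alone, at 0.77 (SE 0.069). Among the calls of these lists, those of APOA1, APOA2, MTTP, F2, PROS1, CA2, GSTA4, ACSL1 and ETFDH held without each hairpin array, and no goblet cell call did. Without replicate 1 of shRNA#2, 4 of the 7 apolipoprotein calls, 4 of the 7 plasma protein calls and 1 of the 5 brush border calls remained.

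Pathways that pattern the crypt showed single genes more than lists. TNIK, CD44 and MSI1 were higher with shRNA#2 and DKK1, ZNRF3, LRIG1 and SP5 higher with shRNA#4 among 28 measured Wnt and stem cell genes. CD44, a hyaluronan receptor, lay 1.55 with shRNA#2 and 0.76 with shRNA#4 from scramble, with no overlap between any of the groups, and differed between the hairpins by 0.79 (SE 0.13). ZNRF3, which removes Wnt receptors, was above scramble with both hairpins and more with shRNA#4, at -0.58 (SE 0.061), and MSI1, an RNA-binding protein, had scramble between the hairpins, at 0.58 (SE 0.057). Of 23 measured Notch pathway genes, 4 were called (17.4%, beside 15.3% of all genes and 17.7% of protein-coding genes). All 4 were higher with shRNA#2, while the list median was -0.045 and 14 of the 23 differences were under 0. For JAG1 the shRNA#4 arrays read -0.13 and -0.24, the shRNA#2 arrays 0.62 and 0.57 and the scramble arrays 0.13 and -0.21 for this Notch ligand, a difference of 0.78 (SE 0.11). The receptor NOTCH2 (0.35 (SE 0.057)), the DNA-binding partner RBPJ (0.40 (SE 0.067)) and the receptor protease ADAM10 (0.36 (SE 0.048)) followed. None of the 4 held without each hairpin array, and 1, 3, 3 and 1 remained without replicate 1 and 2 of shRNA#2 and replicate 1 and 2 of shRNA#4. In the TGF-beta and BMP list, with 18 measured, BAMBI, a decoy receptor, was low with shRNA#2 (-0.88 (SE 0.076)), BMP4 high with shRNA#4 (-0.78 (SE 0.11)) and SMAD6, an inhibitory SMAD, low with shRNA#4 (0.56 (SE 0.072)). SMAD7, BMP2 and LTBP1 differed by -0.44, 0.45 and 0.50. Among 28 measured ephrins, semaphorins and their receptors, EPHA4 had values of 0.048 and -0.048 with shRNA#2, 1.25 and 0.95 with shRNA#4 and -0.88 and -0.76 with scramble, a difference of -1.10 (SE 0.11) for this ephrin receptor, and its ligand EFNB2 was higher with shRNA#2, at 0.66 (SE 0.10), with both hairpins above scramble in each. EPHA2 differed by -0.49. Of 28 measured growth factors, growth factor receptors and their regulators, 3 were called (10.7%, beside 15.3% of all genes). None of the 3 is a ligand or receptor of the EGF family. The insulin receptor INSR was lower with shRNA#4 (0.55 (SE 0.048)) and ERRFI1, an intracellular inhibitor of EGF receptors (-0.54), and the fibroblast growth factor FGF18 (-0.50) higher. HOX genes had 4 of 27 called (14.8%, beside 15.3% of all genes). HOXB3 (0.58 (SE 0.058)), HOXB9 (0.57 (SE 0.12)) and HOXB8 (0.45) were higher with shRNA#2 and HOXA2 (-0.53) higher with shRNA#4. ZNRF3, SP5, TNIK, MSI1, BAMBI, BMP4, SMAD6, EPHA4, INSR and HOXB3 kept their call without each hairpin array.

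Stress programmes also split. HIF targets were called in 4 of 19 measured hypoxia and glycolysis genes (21.1%, beside 17.7% of protein-coding genes). All 4 were higher with shRNA#2, and the list median was 0.18. BNIP3L and BNIP3, mitophagy receptors, differed by 0.52 (SE 0.056) and 0.43 (SE 0.073), CA12, a membrane carbonic anhydrase, by 0.48 and EGLN1, an oxygen-sensing hydroxylase, by 0.41. In BNIP3L and BNIP3 the shRNA#4 arrays lay below all others. Of 21 measured genes of the unfolded protein response and the ER, ATF6B (0.62 (SE 0.073)), CREB3L1 (0.51), ERN1, which encodes the sensor IRE1 (0.44 (SE 0.062)), CALR (0.24) and SEC23A (0.23) were higher with shRNA#2, and SRPRA (-0.53 (SE 0.062)) and CREB3 (-0.47) higher with shRNA#4. ATF4 targets had 5 of 27 called (18.5%, beside 17.7% of protein-coding genes). VLDLR (-0.63 (SE 0.090)) and DDIT3, which encodes CHOP (-0.38 (SE 0.066)), were higher with shRNA#4 and CTH (0.49) higher with shRNA#2. WARS1 was called on the mean of 2 probe sets that differed, at -0.031 and -0.71. Chaperones had 7 of 18 called. HSPA4L, HSPH1 and BAG2 lay above scramble with both hairpins, and HSPA4L (0.64 (SE 0.091)) and BAG2 (0.44) were higher with shRNA#2 and HSPH1 (-0.48) with shRNA#4. In the lysosome and autophagy list, 8 of 24 were called, 4 in each direction. SQSTM1, an autophagy adaptor, was high with shRNA#4 (-0.66 (SE 0.066)), as was the transcription factor TFE3 (-0.47 (SE 0.069)), and the protease CTSB (0.36 (SE 0.046)) and LAMP2 (0.31) were lower with shRNA#4. Calls of BNIP3L, ATF6B, ERN1, SRPRA and SQSTM1 held without each hairpin array. Those of the ATF4 target and chaperone lists did not, and without replicate 1 of shRNA#2 1 of 5 and 0 of 7 of them remained.

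The list of poly(A) tail and decay factors, which is the process FAM46A belongs to, had 7 of 24 measured called. TENT2 stood at 0.16 and 0.24 in the shRNA#2 arrays, at -0.48 and -0.67 in the shRNA#4 arrays and at -0.029 and 0.029 in the scramble arrays for another noncanonical poly(A) polymerase, a difference of 0.77 (SE 0.077), and PAPOLA, the canonical nuclear poly(A) polymerase, differed by 0.62 (SE 0.093) and was likewise low in the shRNA#4 arrays. The decapping factors DCP1A (-0.52 (SE 0.054)) and EDC3 (-0.47) were high with shRNA#4, and DCP2 (-0.39), EDC4 (-0.38) and the CCR4-NOT subunit CNOT11 (-0.25) low with shRNA#2. The calls of TENT2 and DCP1A held without each hairpin array. Of 12 measured genes of microRNA and hairpin processing, 3 were called. They were TNRC6B, a silencing partner of Argonaute (0.57 (SE 0.088)), LIN28B, which blocks let-7 maturation (-0.56 (SE 0.10)), and ZSWIM8 (-0.34), and none held without each hairpin array. Interferon and RNA-sensing genes had 2 of 38 called (5.26%, beside 15.3% of all genes), the sensor IFIH1 (0.39 (SE 0.087)) and its adaptor MAVS (-0.24 (SE 0.060)). Of the 38 intervals, 34 lay within 0.5 on either side of 0, beside 84.3% of those of all genes. Cytoplasmic ribosomal proteins had 2 of 46 called (RPS26, -0.31, and RPL10, 0.25), with 44 of 46 intervals within 0.5, beside the same 84.3%. The calls of IFIH1, MAVS and RPL10 were lost without any one of the 4 hairpin arrays, and that of RPS26 without each but replicate 1 of shRNA#4.

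Of 21 measured matrix proteases and inhibitors, MMP1, ADAM9 and RECK (0.46 (SE 0.086)) were higher with shRNA#2 and ADAM19 (-0.38 (SE 0.067)) and ADAM15 (-0.24) higher with shRNA#4. In the collagen and matrix list, 3 of 12 were called, AGRN, agrin (0.47 (SE 0.067)), higher with shRNA#2 and THBS1 and P3H2 higher with shRNA#4. VIM, vimentin, was the only called mesenchymal gene besides TAGLN among 14 measured. Its mean difference was -0.28 (SE 0.056), but its 3 probe sets gave -0.57, -0.16 and -0.13. Of 21 lineage transcription factors, PPARG (0.49 (SE 0.10)), MAF (0.38) and GATA4 (0.30) were lower with shRNA#4 and GRHL2 (-0.20) higher. The junctional adhesion molecule ESAM, an endothelial marker, was high with shRNA#4 (-0.78 (SE 0.070)) and the only called gene of 13 immune and endothelial markers. CLIC5, an intracellular chloride channel, was low with shRNA#2 (-0.63 (SE 0.083)) and the only called channel gene of 11. LIMS1 (0.49 (SE 0.084)) and FERMT1 (0.30), both integrin-linked adaptors, were higher with shRNA#2 among 9 measured adhesion genes. Cholesterol and fatty acid synthesis had 4 of 28 called (14.3%, beside 15.3% of all genes), with a list median of 0.15. SCAP, which escorts SREBP factors (0.31), the fatty acid desaturase FADS1 (0.22) and the acetyl-CoA carboxylase ACACB (0.22) were higher with shRNA#2, and ACLY, which makes cytosolic acetyl-CoA (-0.39 (SE 0.060)), higher with shRNA#4. Under quantile normalization 8 were higher with shRNA#2 and 1 with shRNA#4. Oxidative phosphorylation had 3 of 15 called (20%, beside 17.7% of protein-coding genes), led by COX6B1 (-0.50 (SE 0.078)). Calls of MMP1, ADAM9, ESAM, CLIC5 and TAGLN held without each hairpin array and no other call of these lists did.

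Genes moved most by both hairpins together were used to ask how closely the hairpins matched there. Among 206 genes (1.38%) with a called mean change of 2-fold or more from scramble, the interval of the difference between the hairpins lay within 0.5 in 78 (37.9%), against 84.3% of all genes. The hairpins were called different in 78 as well, a share of 37.9% against 15.3% of all genes. KITLG stood at 0.14 and 0.21 in the shRNA#2 arrays, at 0.17 and -0.14 in the shRNA#4 arrays and at -2.65 and -2.14 in the scramble arrays for stem cell factor, and the difference was 0.16 with an interval of -0.27 to 0.59. GSTA1 had values of -0.061 and -0.44 with shRNA#2, 0.061 and -0.29 with shRNA#4 and 3.53 and 3.49 with scramble for this glutathione transferase, and the difference was -0.14, with an interval of -0.52 to 0.25. The hairpin arrays overlapped in GSTA1 and in KITLG and stood far from scramble on one side. For GATM, the first enzyme of creatine synthesis, the interval ran from -0.19 to 0.21 and for APOA4, an apolipoprotein of chylomicrons, from -0.34 to 0.20. C5 (-0.19 to 0.50), SAMD5 (-0.40 to 0.29), TM4SF20 (-0.011 to 0.46) and APOC3 (-0.033 to 0.50) were not called either, and TMEM47 (0.050 to 0.63) was not called although its interval excluded 0. P3H2, a collagen prolyl hydroxylase, rose more with shRNA#4 (difference -0.41 (SE 0.080)), HSPA4L rose more with shRNA#2 (0.64 (SE 0.091)) and ZG16 fell more with shRNA#2 (-0.66 (SE 0.12)). None of these 3 calls held without each hairpin array.

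**Figure D5:**
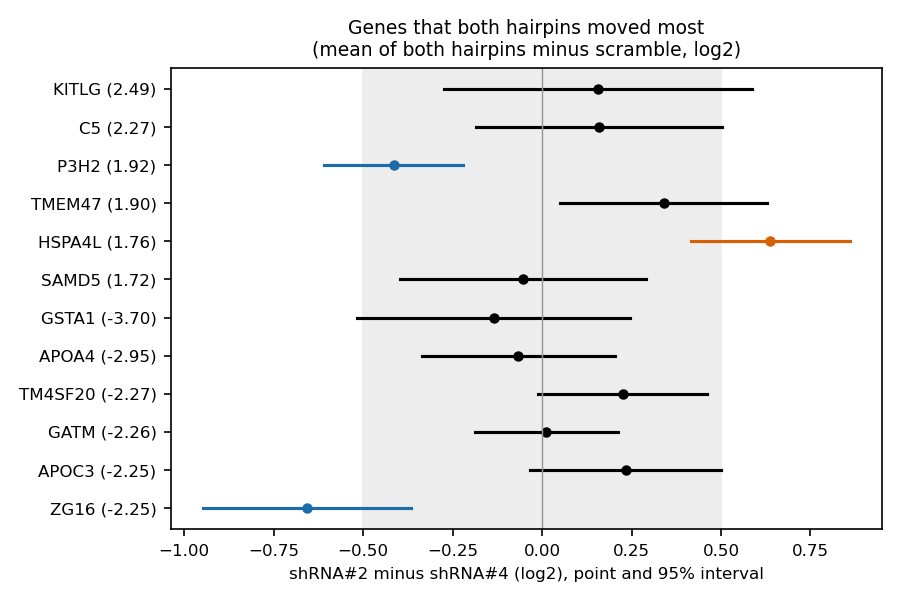
Difference between the hairpins on the log2 scale, as a point with its 95% confidence interval, for the 6 genes that rose most and the 6 that fell most with the mean of both hairpins (that mean change is in brackets). Black marks genes not called, blue those called higher with shRNA#4 and orange higher with shRNA#2, and the grey band spans 0.5 on either side of 0. Only HSPA4L, P3H2 and ZG16 are called.

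The arrays also carry probe sets for microRNA genes, which report hairpin or host transcript RNA and not the mature forms. Of 1072 measured, 35 were called (3.26%), 23 higher with shRNA#2 and 12 higher with shRNA#4, a smaller share than the 15.3% of all genes. Of the 35, 20 lie inside the span of a tested gene, with strand not considered. That gene, called the host below, was called with the same sign for 6, with the other sign for 2 and not called for 12. Mature sequences are shown for the pair of called genes that share a seed, for the largest difference in each direction and for MIR27B, a widely studied microRNA. They come from RefSeq on GRCh38.p14, are written 5′ to 3′ as RNA, and have the seed, bases 2 to 8, in capitals.
hsa-miR-181d-5p (chr19:13874910-13874932, plus strand): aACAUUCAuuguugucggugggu
hsa-miR-4262 (chr2:11836943-11836959, minus strand): gACAUUCAgacuaccug
hsa-miR-4737 (chr17:60043077-60043096, minus strand): aUGCGAGGaugcugacagug
hsa-miR-5047 (chr17:64501230-64501250, minus strand): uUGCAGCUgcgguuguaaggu
hsa-miR-27b-3p (chr9:95085505-95085525, plus strand): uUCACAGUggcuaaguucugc

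MIR181D and MIR4262, with the seed ACAUUCA in common, were both higher with shRNA#4, by -0.33 (SE 0.065) and -0.46 (SE 0.083). The shRNA#4 arrays of MIR181D read 0.22 and 0.36 and stood above all others, whereas MIR4262 lay below scramble with both hairpins and lower with shRNA#2. MIR4737 had values of -0.11 and -0.33 with shRNA#2, 0.62 and 0.65 with shRNA#4 and 0.0025 and -0.0025 with scramble, a difference of -0.86 (SE 0.077), and its host HEATR6 differed by -0.52 (SE 0.056). MIR5047 stood at 0.26 and 0.25 in the shRNA#2 arrays, at -0.33 and -0.41 in the shRNA#4 arrays and at 0.0066 and -0.0066 in the scramble arrays, a difference of 0.63 (SE 0.051), and its host DDX5, an RNA helicase, differed by 0.36 (SE 0.049). In these pairs the microRNA gene and its host went the same way. MIR27B read 0.11 and 0.17 with shRNA#2, -0.20 and -0.49 with shRNA#4 and 0.045 and -0.045 with scramble. It differed by 0.49 (SE 0.10), with scramble between the hairpins, while its host AOPEP was not called (adjusted p = 0.172 in limma).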

How the data were processed

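Total RNA of Caco-2 cells was hybridised to 6 Affymetrix arrays, 1 per sample, after labelling with the WT PLUS kit, per the labels' protocols. The deposited log2 values had been set by the authors relative to each probe set's median over the 6 arrays, as read from the values. No header or label names the log base, taken to be 2, or the background correction, summarisation and normalization. Groups come from the sample titles. Of 48144 probe sets, 16098 name 1 gene, 32046 none and 0 several. All 16098 matched RefSeq, and probe sets of a gene were averaged. Low-intensity probe sets could not be removed because the values hold no level, and the number of arrays limits the precision.

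Limma 3.58.1 in R 4.3.3 was fitted to 3 groups (lmFit, eBayes without trend, 3 residual and 3.09 prior degrees of freedom), with the contrast shRNA#2 minus shRNA#4, 95% confidence intervals and Benjamini-Hochberg adjustment over 14884 genes. Genes were called at an adjusted p under 0.05. The fit was tested on simulated data. The members and gene lists were chosen with earlier results of these data known, so lists have counts and medians and no test. Named genes were the 15 largest called protein-coding differences each way, up to 4 called members of each list, the 10 strongest each way with opposite called changes from scramble, and the 6 largest rises and 6 largest falls shared by both hairpins. Called members of a list beyond these 4 were named after their values were seen. Alternatives were another scaling, the 4 hairpin arrays alone, a replicate block, array weights, a robust prior, other gene sets, stricter thresholds and leaving out each array. Tables and figures were made in Python 3.11.15 with pandas 2.3.3 and matplotlib 3.10.9.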

Additional observations from a re-analysis of the deposited data

Results flagged for a closer look

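In 20 genes each hairpin was called against scramble in limma and the directions were opposite. They were chosen for this among the genes called between the hairpins, so their differences are a description and no further test. The differences between shRNA#2 and shRNA#4 on the log2 scale were TNIK 1.51, MMP1 1.54, GALNT3 1.70, NDNF 1.09, CP 1.21, PLBD1 1.01, VSTM5 0.81, FURIN 0.74, MAZ 0.65 and PNRC1 0.87 among genes above scramble with shRNA#2 and below it with shRNA#4. Their changes from scramble ran from 0.30 to 0.79 with shRNA#2 and from -1.15 to -0.35 with shRNA#4. For genes below scramble with shRNA#2 and above it with shRNA#4 the differences were OLR1 -2.44, CSGALNACT2 -1.54, GGCT -1.08, VMA21 -0.96, TOMM34 -0.94, KLF6 -0.87, HCCS -1.03, ACSL4 -1.01, SMC1A -1.04 and PTGFRN -0.81. Here the changes from scramble ran from -1.11 to -0.38 with shRNA#2 and from 0.43 to 1.33 with shRNA#4. All 20 kept their call between the hairpins without each of the 4 hairpin arrays, as did 26.8% of the 2272 called genes, but they had been chosen as the strongest on all arrays.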

How the results depend on the processing

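The count of called genes stayed within 1.5 times of 2272 under quantile normalization (2633), centring of arrays (2246), the 4 hairpin arrays alone (2166), array weights (2381), a robust prior (2173), genes with 1 probe set (2179), protein-coding genes only (2335) and every probe set tested (2223). A stricter adjusted p of 0.01 gave 769 (330 higher with shRNA#2, 439 higher with shRNA#4), and limma's treat against 1.5-fold gave 20 (7 and 13). With 1 array left out in turn, the count ran from 761 to 2166, from 323 to 948 for genes higher with shRNA#2 and from 438 to 1218 for genes higher with shRNA#4. The share of called genes with scramble between the hairpins, 29.5%, was 25.4% with the replicate block, 26.6% in protein-coding genes only, 43.2% at an adjusted p of 0.01, 60% in treat and 36.9% to 47.2% with 1 array left out. A missing array relaxes that condition by construction. The count of intervals within 0.5 ran from 11638 to 12813 over the settings other than the stricter thresholds and protein-coding genes only, where it was 9911 of 11916.

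Samples of different groups share only a replicate number. The block on it called 2637 genes (1153 and 1484), 2189 of them among the 2272, with KRT18 and KRT19 called and mitotic genes at 16 and 2, and the correlations across genes of replicate 1 minus replicate 2 between groups were 0.119 to 0.199. No named call reversed in any setting. Of 166 named called genes, 75 kept their call without each hairpin array and 91 did not, with fewer samples per fit, and 17 lost it under a scaling, gene set or fit alternative. Of 95 called genes with several probe sets, 7 had probe sets on both sides of 0. With 2 arrays a group, centred values and an unknown FAM46A level, neither low-intensity probe sets nor the extent of depletion could be weighed.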

Other observations

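Noncoding transcripts, which the named-gene rule did not cover, were picked here after their values were seen. Of the called long noncoding RNAs, 41 were higher with shRNA#2 and 39 higher with shRNA#4, and of the called transcribed pseudogenes 27 and 13. UCA1 stood at -1.05 and -0.75 in the shRNA#2 arrays, at 0.38 and 0.55 in the shRNA#4 arrays and at -0.15 and 0.15 in the scramble arrays, a difference of -1.37 (SE 0.14), so scramble lay between the hairpins. For NORAD the shRNA#4 arrays read 0.19 and 0.20, the shRNA#2 arrays -0.81 and -0.70 and the scramble arrays -0.036 and 0.036 for this RNA, which binds Pumilio proteins, a difference of -0.95 (SE 0.058). SNHG8 had values of -0.26 and -0.31 with shRNA#2, 0.59 and 0.63 with shRNA#4 and 0.044 and -0.044 with scramble for this small nucleolar RNA host gene, a difference of -0.89 (SE 0.055). In the other direction LOC283683 differed by 0.96 (SE 0.078), DKFZP586I1420 by 0.92 (SE 0.066) and WTAPP1, a transcribed pseudogene that lies on chromosome 11 as MMP1 does, by 0.92 (SE 0.10).

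The 32046 probe sets without a gene symbol were fitted in limma together with the named probe sets, with p adjusted over all 48144. Of the 32046 without a symbol, 1409 were called, 738 higher with shRNA#2 and 671 higher with shRNA#4.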
